A study of Mus musculus with 10 samples.

Results

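The peaks described here are the 678 autosomal regions at which elongating RNA polymerase II held a smaller share of its chromatin signal in muscle stem cells (MuSCs) lacking Kmt5b than in control cells. They were selected on the Pol II values themselves. The score of each peak was divided by the autosomal total of its library and multiplied by the mean total of the 4 libraries, autosomal peaks with a mean above 50 were kept, and a peak was taken when the lower control value was more than 1.3 times the higher value of the deleted cells. Of 51322 union peaks, 50698 were autosomal, 22340 passed the minimum and 678 met the rule, which is 3.03% of the peaks past the minimum. The mirror image of the rule was met by 998 peaks (4.47%), which are called gaining peaks below. Because the rule used the Pol II values of all 4 libraries, differences in Pol II between the genotypes are given as a description without a test, and tests are kept for the histone mark, which the rule did not use.

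The study compared 2 libraries per genotype for each of 2 antibodies by CUT&RUN, which sequences the DNA that an antibody-tethered micrococcal nuclease cuts free around its target. One antibody recognises elongating Pol II by its serine 2 phosphate (Pol II S2P) and the other histone H4 monomethylated at lysine 20 (H4K20me1). Control MuSCs (WT, genotype Pax7CreERT/Suv4-20h1WT) and Kmt5b-deleted MuSCs (SH1sKO, genotype Pax7CreERT/Suv4-20h1KO) both carried the tamoxifen-inducible Cre recombinase that is driven from the satellite cell gene Pax7, so that Cre was common to both genotypes and only the Suv4-20h1 allele, the older name of Kmt5b, differed. According to the methods of the study, tamoxifen was given to adult mice, and the satellite cells were purified with magnetic beads and expanded in culture. Fewer cells that use a region and less polymerase per cell cannot be told apart in such bulk libraries.

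Serine 2 phosphorylation is placed on the polymerase by the CDK9 and CDK12 families of kinases while it moves along a gene, so that S2P is normally low at the start of a gene and high towards its end, and it is also found at active enhancers that are transcribed. KMT5B turns H4K20me1 into the dimethylated form, and the monomethyl mark is placed by KMT5A during the cell cycle and covers the bodies of many active genes. MuSCs are the stem cells of skeletal muscle. They are defined by PAX7, and MYF5 and MYOD1, basic helix-loop-helix factors that bind E-boxes, drive their commitment to the muscle lineage.

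The sequences at the centres of 5 losing peaks are shown first, because they carry a short motif that was more frequent among losing peaks than among all peaks, as described further on. The windows are 300 bases long, are read from the plus strand of GRCm38 and lie outside untranslated regions. Capitals mark CAGCTG, the E-box preferred by MYOD1 and a palindrome that reads the same on both strands. The peaks lie in an intron of Ryr1, the calcium release channel of the sarcoplasmic reticulum (chr7:29123754-29124053), between genes with Slc6a6, the taurine transporter, as the nearest coding gene (chr6:91619738-91620037), in an intron of Sbno2 (chr10:80074021-80074320), in an intron of Nctc1, a non-coding transcript of the Igf2 and H19 region (chr7:142550789-142551088), and in an intron of Itga7, the laminin receptor subunit used to isolate MuSCs (chr10:128937826-128938125).
Ryr1: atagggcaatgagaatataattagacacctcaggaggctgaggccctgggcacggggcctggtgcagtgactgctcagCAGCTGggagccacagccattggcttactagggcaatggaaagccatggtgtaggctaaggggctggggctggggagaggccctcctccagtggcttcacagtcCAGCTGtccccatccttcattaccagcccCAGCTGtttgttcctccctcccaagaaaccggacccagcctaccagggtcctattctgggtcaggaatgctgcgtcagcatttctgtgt
near Slc6a6: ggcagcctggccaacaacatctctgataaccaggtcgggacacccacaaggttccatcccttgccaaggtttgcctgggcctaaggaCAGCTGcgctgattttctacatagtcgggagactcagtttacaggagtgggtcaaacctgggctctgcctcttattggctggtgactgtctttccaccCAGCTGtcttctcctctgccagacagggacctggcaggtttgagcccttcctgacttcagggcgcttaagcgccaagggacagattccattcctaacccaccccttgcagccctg
Sbno2: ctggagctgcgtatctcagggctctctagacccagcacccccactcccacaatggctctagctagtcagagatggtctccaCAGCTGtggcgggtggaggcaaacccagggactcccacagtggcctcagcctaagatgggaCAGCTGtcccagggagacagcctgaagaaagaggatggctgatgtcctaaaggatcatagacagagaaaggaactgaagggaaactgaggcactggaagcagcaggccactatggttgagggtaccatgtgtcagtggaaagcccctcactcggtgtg
Nctc1: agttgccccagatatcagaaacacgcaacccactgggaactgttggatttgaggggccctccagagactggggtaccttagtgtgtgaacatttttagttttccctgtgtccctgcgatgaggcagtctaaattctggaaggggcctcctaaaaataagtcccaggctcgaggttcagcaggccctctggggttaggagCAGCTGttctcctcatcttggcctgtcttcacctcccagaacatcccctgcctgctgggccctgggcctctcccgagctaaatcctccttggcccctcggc
Itga7: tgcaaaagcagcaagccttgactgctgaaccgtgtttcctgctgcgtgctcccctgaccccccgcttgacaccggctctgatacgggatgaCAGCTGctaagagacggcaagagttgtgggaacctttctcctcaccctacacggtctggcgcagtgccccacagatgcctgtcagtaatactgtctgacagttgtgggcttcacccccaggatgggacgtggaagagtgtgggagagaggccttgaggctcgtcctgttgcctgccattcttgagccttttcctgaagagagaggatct

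The Ryr1 window held 3 copies of CAGCTG, the windows near Slc6a6 and in Sbno2 held 2 each, and those in Nctc1 and Itga7 held 1 each. These windows were picked among the named peaks for carrying the motif and show what it looks like, not how often it occurs.

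The losing peaks took 2.77% and 2.60% of the autosomal Pol II S2P total in WT 1 and WT 2, and 1.69% and 1.70% in SH1sKO 1 and SH1sKO 2. The median score of a losing peak was 117 and 111 in the WT libraries and 69.6 and 69.1 in the SH1sKO libraries. The medians of replicates thus lay close together and those of the genotypes apart, as the selection requires. The median ratio of the WT mean to the SH1sKO mean was 1.59, with quartiles of 1.49 and 1.73 and a range from 1.32 to 3.35. Most losses were moderate, with 488 peaks above 1.5-fold and 31 above 2-fold. Most losing peaks were also weak, since 371 of them (54.7%) had a mean score under 100, the same share as among all peaks past the minimum (54.7%).

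**Figure D1:**
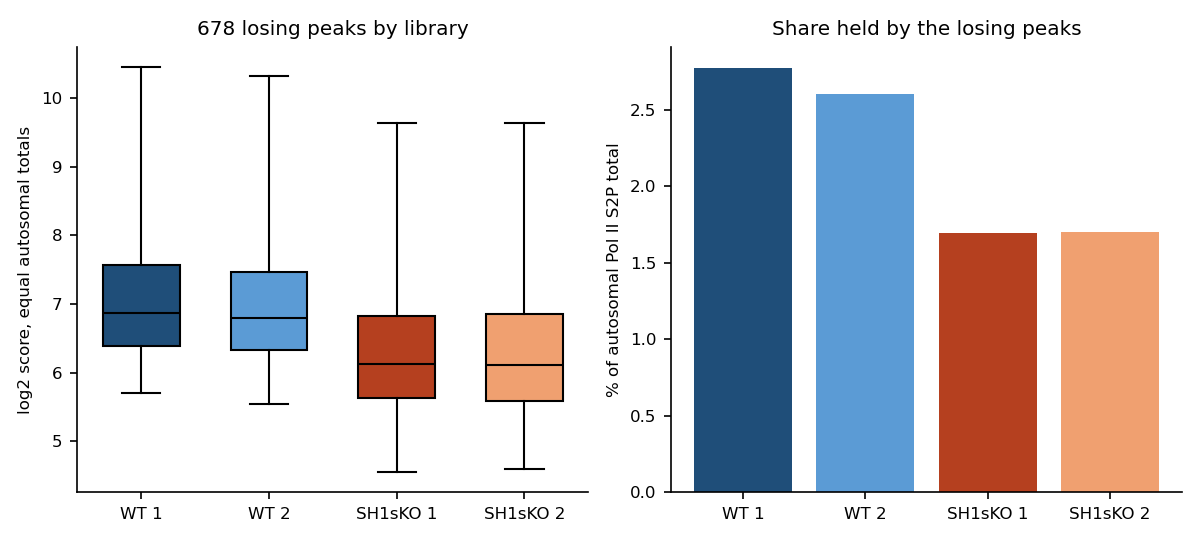
Left, log2 score at equal autosomal totals of the 678 losing peaks in each of the 4 Pol II S2P libraries; boxes show quartiles and median, whiskers the full range. Right, bars give the share of the autosomal total held by these peaks, 2.77% and 2.60% in the WT libraries and 1.69% and 1.70% in the SH1sKO libraries.

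Replicate error sets the scale against which the rule has to be read. Across all 22340 peaks past the minimum, the WT libraries differed from each other by more than 1.3-fold at 30.9% of peaks and the SH1sKO libraries at 31.7%. Within the losing peaks the median ratio between replicates was 1.10 in WT and 1.11 in SH1sKO, beside 1.18 and 1.19 over all peaks past the minimum. The rule favours peaks whose replicates lie close, so the smaller ratios follow in part from the selection. WT 1 was the higher WT library at 435 of the 678. Autosomal totals of the deposited scores ranged from 3224367 in WT 1 to 4836482 in SH1sKO 1, and the scale on which libraries are compared therefore matters. On the scores as deposited, the medians of the losing peaks were 96.5 and 119 in WT and 86 and 60 in SH1sKO. At 436 of the 678 peaks both SH1sKO values lay below both WT values there. The rule chose these peaks for such a separation at equal totals of the same libraries, so this count is not separate evidence. The same count over all peaks on the deposited scale is not given here. Applied to the deposited scores, the rule was met by 135 peaks, 88 of them among the 678.

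The peaks at the threshold differed little across it. Just inside were peaks in Arhgef2, in Terf2, a telomere-binding protein, and in Myo18a, with ratios of the lower WT to the higher SH1sKO value of 1.3002, 1.3005 and 1.3007. Just outside were peaks in Zfp516, near Pltp and in 1700029M20Rik, whose ratios all rounded to 1.29998. The Terf2 peak held 109 and 117 in WT against 78.5 and 84.0 in SH1sKO, and the peak near Pltp held 94.7 and 109 against 72.9 and 62.2.

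Of the 678 losing peaks, 547 were listed with a gene by the authors and 131 with none. They covered 480 genes, and 516 of the 547 peaks belonged to protein-coding genes and 27 to long non-coding RNA genes. Kmt5b itself had 2 peaks, both too weak for the rule, with mean scores of 15.5 and 22.3.

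The identity of the cells was checked on marker genes. Of 8 genes that mark satellite cells and myoblasts, 7 had a Pol II S2P peak, and their summed scores were 8178 and 7226 in WT and 6284 and 6093 in SH1sKO. Myf5 had none. The lower sums came mainly from Myod1 (1614 and 1035, then 718 and 747) and Cdh15 (1827 and 1752, then 1190 and 1234), which hold losing peaks. Itga7, which also holds one (861 and 853, then 716 and 669), and Vcam1 (217 and 191, then 189 and 154) were lower without overlap too. Pax7 (333 and 332, then 287 and 382), Des (2747 and 2456, then 2601 and 2288) and Sdc4, a satellite cell syndecan (579 and 608, then 584 and 618), had values that overlapped between genotypes. Of 5 genes of differentiated muscle, 4 had a peak, with summed scores of 3305 and 2896 in WT and 2581 and 2249 in SH1sKO. Tnnt3 made up most of these sums (2793 and 2463, then 2088 and 1783). Myog was lower in SH1sKO (71.7 and 85.8, then 68.8 and 61.0). Acta1 overlapped between genotypes (290 and 195, then 201 and 205), and Ckm was higher in SH1sKO (149 and 152, then 223 and 199). The part of differentiation in the myogenic and sarcomere losses was not tested. Few markers of cells outside the muscle lineage had a peak, 1 of 4 fibro-adipogenic, 1 of 3 endothelial and 1 of 3 immune genes. Of Schwann and neural genes 1 of 3 had one, and of smooth muscle and pericyte genes 2 of 3. Their scores were not all low. Cd68, the immune marker, scored 1048 and 887 in WT and 1059 and 967 in SH1sKO, and the pericyte marker Pdgfrb 449 and 336, then 319 and 279. Pecam1, Sox10 and Rgs5 scored lower in every library. Whether these peaks come from other cells was not tested. The fibro-adipogenic list was represented by Col1a1, the type I collagen chain, whose peaks summed to 1327 in WT 1 and to 14.9, 60.7 and 35.7 in WT 2, SH1sKO 1 and SH1sKO 2. Pdgfra, Dcn and Ly6a, the defining markers of that list, had no peak. The part of this single library in the losses described below was not tested, but each value is given by library so that losses led by WT 1 can be seen.

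The highest-scoring losing peak listed with a myogenic regulator was that of Myod1, the master regulator of muscle commitment (chr7:46379014-46382113). It lay almost wholly outside the gene (fraction within it 0.0), with its centre 4089 bases from the start site. It scored 1280 and 832 in WT and 545 and 558 in SH1sKO. Both WT libraries lay above both SH1sKO libraries, which the rule requires, and the WT libraries differed from each other more than the SH1sKO libraries did. A further 3 losing peaks stood in the same neighbourhood, with centres 23223 and 38715 bases from the Myod1 start and one nearer to Otog, and enhancers upstream of Myod1 are known to drive it in muscle. The nearer of the intergenic peaks scored 323 and 274 in WT and 205 and 182 in SH1sKO. The farther one scored 315 and 261 against 181 and 199. Summed, the 4 losing peaks of this region scored 2092 and 1537 in WT and 1030 and 1066 in SH1sKO, out of 9 peaks past the minimum between chr7:46315620 and 46382113. That stretch is bounded by losing peaks, so flanking peaks that did not lose share are not among the 9.

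Eya4, a transcriptional coactivator of the muscle lineage, held 3 losing peaks among its 20, all in introns. The strongest of these scored 251 and 192 in WT and 123 and 114 in SH1sKO. The others scored 112 and 103 against 78.5 and 50.7, and 87.4 and 88.5 against 60.7 and 57.6. The remaining Eya4 peaks had log2 differences, SH1sKO minus WT, from -0.51 to 0.26. An intronic peak of Itga7 scored 75.3 and 66.2 in WT and 40.5 and 29.9 in SH1sKO.

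M-cadherin (Cdh15), an adhesion molecule of satellite cells, held 3 losing peaks that the deposited table lists under another gene. An identifier, ENSMUSG00000092329, is given to 15 losing peaks and to 181 peaks past the minimum on chromosome 8, and in GENCODE M21 this is the long read-through gene Gm20388, which spans several others. By position, 3 of these peaks overlap Cdh15, and they were singled out after their values were seen. The one at the start of Cdh15 (chr8:122847831-122848753) scored 192 and 170 in WT and 62.3 and 105 in SH1sKO, and the strongest of them (chr8:122850483-122852418) scored 696 and 610 against 466 and 394. Together they scored 982 and 867 in WT and 575 and 554 in SH1sKO. With genes taken from overlap, 8 of 110 peaks of the 28 satellite cell and myogenic regulators lost share (7.27%), and with the listed gene 5 of 97 (5.15%), beside 3.03% of all peaks past the minimum. One peak gained under either assignment. The median log2 difference over the 97 peaks was -0.17, beside -0.03 over all peaks past the minimum.

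Genes of the contractile apparatus contributed 5 losing peaks of 112 (4.46%, beside 3.03% of all peaks), and 3 gained. The start of Tpm1, a tropomyosin, scored 192 and 168 in WT and 93.9 and 97.9 in SH1sKO. The start of Tnnt1, the slow troponin T, scored 187 and 192 against 112 and 113. Within titin (Ttn), 2 of 37 peaks lost share, one of them at an annotated start with 197 and 191 against 120 and 125 and the other in an intron with 60.7 and 78.3 against 43.7 and 32.2. An intronic peak of Ryr1 scored 208 and 196 against 144 and 124. Replicates lay close together at Tnnt1 and at the Ttn start and farther apart at the intronic Ttn peak.

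**Figure D2:**
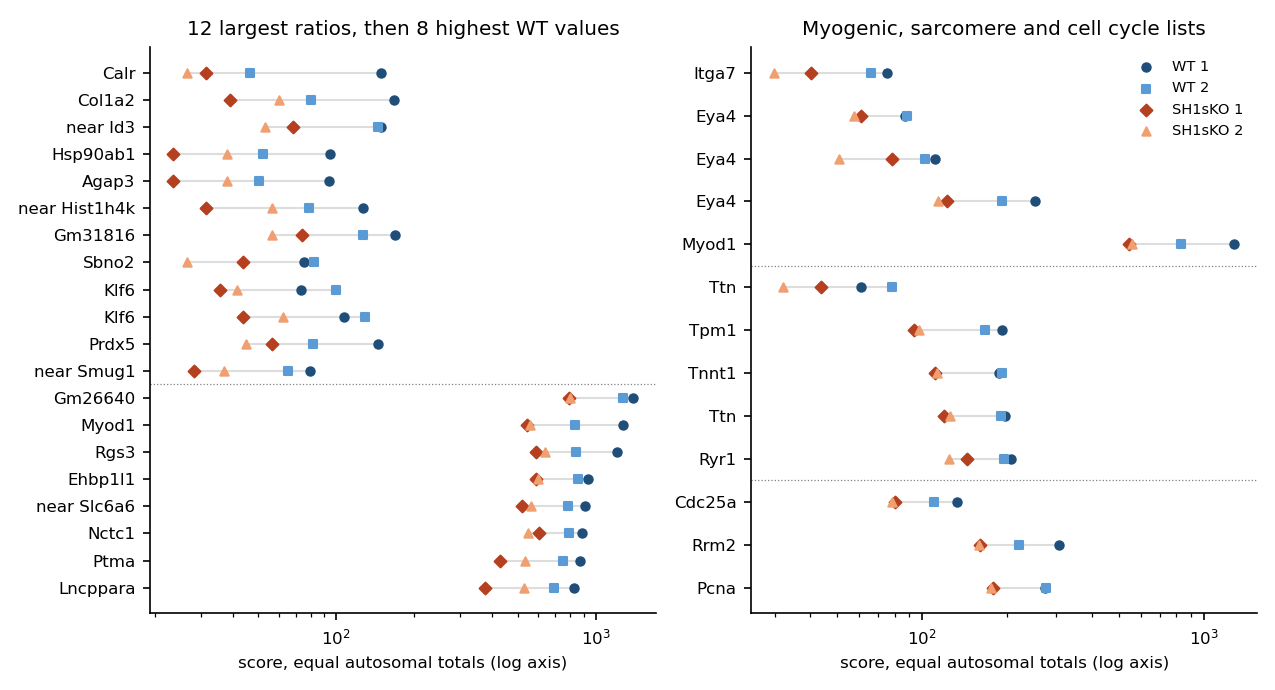
Scores at equal autosomal totals (log axis) of named losing peaks, 1 point per library. Left, the 12 largest ratios above the dotted line and the 8 highest WT values below it; Myod1 ran from 545 to 1280. Right, losing peaks of the myogenic, sarcomere and cell cycle lists; in Calr, Col1a2, Hsp90ab1 and Agap3 the WT 1 point stands far to the right of WT 2.

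The largest ratios were in part carried by a single library. A peak in an exon of Calr, the calcium-binding chaperone of the endoplasmic reticulum, had the largest ratio (3.35), from 148 and 46.6 in WT and 31.6 and 26.5 in SH1sKO. One in an exon of Col1a2, the second chain of type I collagen, scored 166 and 80.2 against 38.9 and 59.9. At Hsp90ab1, the constitutive cytosolic chaperone, the scores were 94.7 and 52.2 against 23.5 and 38.0. Agap3 had 93.5 and 50.3 against 23.5 and 38.0. In these 4 peaks WT 1 was well above WT 2, so the ratio of the lower WT to the higher SH1sKO value, 1.48 at Calr, is much smaller than the ratio of the means.

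In others the replicates lay close together. A peak between genes 5732 bases from the start of Id3, an inhibitor of basic helix-loop-helix factors, scored 149 and 145 in WT and 68.0 and 53 in SH1sKO. A second losing peak 2921 bases from Id3 scored 204 and 197 against 134 and 146. The neighbouring E2f2, a cell cycle transcription factor, had 3 losing peaks among 4, all intronic, with summed scores of 459 and 363 in WT and 259 and 253 in SH1sKO. From the first to the last of these losing peaks, the Id3 and E2f2 region held 5 losing peaks of 8 past the minimum. A region bounded by losing peaks leaves out flanking peaks that did not lose share, so this proportion cannot be read beside the 3.03% of all peaks. Klf6, a zinc finger factor of the immediate early response, had 2 losing exonic peaks of 5, which scored 72.9 and 99.7 against 35.6 and 41.4, and 107 and 130 against 43.7 and 62.2. At Klf6 it was WT 2 that lay higher.

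The remaining peaks among the 12 largest ratios were at Gm31816, a non-coding gene (169 and 127 in WT, 73.7 and 56.4 in SH1sKO), in an intron of Sbno2 (75.3 and 82.0, then 43.7 and 26.5), at the start of Prdx5, an antioxidant peroxiredoxin (145 and 81.1, then 56.7 and 44.9), near Hist1h4k, an H4 gene (126 and 78.3, then 31.6 and 56.4), and near Smug1, a uracil-DNA glycosylase (78.9 and 65.2, then 28.3 and 36.8). Their WT values all lay above the SH1sKO values, which the rule requires, and the WT spread was widest at Prdx5 and near Hist1h4k.

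The losing peaks with the highest WT scores were longer. The highest was on the non-coding gene Gm26640, 3329 bases from the start of Tmsb10, which encodes an actin-sequestering thymosin, with 1393 and 1277 in WT and 792 and 797 in SH1sKO. Rgs3, a regulator of G-protein signalling, scored 1205 and 839 against 591 and 640. Ehbp1l1 scored 933 and 855 against 590 and 601. The WT libraries differed widely at Rgs3 and less at Gm26640 and Ehbp1l1. The intergenic peak near Slc6a6 scored 913 and 780 against 521 and 565, and Nctc1 scored 883 and 790 against 605 and 547. At Ptma, which encodes prothymosin alpha, the scores were 873 and 748 against 427 and 534, and at the non-coding gene Lncppara they were 828 and 689 against 373 and 527. Nctc1 lies in the imprinted Igf2 and H19 region, where a peak at the end of Igf2, a fetal growth factor, lost share too (63.2 and 57.8 in WT, 38.9 and 42.6 in SH1sKO).

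Replication-dependent histone genes were the group with the largest share of losing peaks among the lists examined. These genes are clustered, lack introns and polyadenylation and are transcribed in S phase. Of 35 peaks past the minimum, 14 lost share (40.0%) and none gained, beside 3.03% and 4.47% of all peaks. Of the 35, 31 had a lower SH1sKO mean and 26 had both SH1sKO values below both WT values at any size of difference, beside 11906 and 5369 of the 22340 peaks past the minimum. The median log2 difference was -0.56, beside -0.03 over all peaks past the minimum. Summed over the 35 peaks the scores were 5403 and 4682 in WT and 3142 and 3737 in SH1sKO. With WT 1 left out, 14 histone peaks met the rule on the remaining libraries, and 22 did without WT 2. Leaving a library out makes the rule easier to meet, so these counts are not separate evidence. On the scores as deposited 5 histone peaks met the rule, and at equal totals 6 did with a threshold of 1.5. All losing histone peaks but the one of Hist2h2bb were in the Hist1 cluster on chromosome 13. That chromosome had the highest share of losing peaks (42 of 669, 6.28%), and the lowest was found on chromosome 14 (2.003%). The count for chromosome 13 includes these histone peaks, and its rank without them was not examined.

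Examples came from every core histone. Hist1h4i, an H4 gene, scored 277 and 263 in WT and 115 and 167 in SH1sKO. Hist1h3b, an H3 gene, scored 193 and 159 against 100 and 87.5. Hist1h2bg, an H2B gene, scored 250 and 199 against 106 and 131. The H2A gene Hist1h2ag scored 132 and 94.1 against 63.2 and 53. Relative to their level, the SH1sKO replicates of Hist1h4i and the WT replicates of Hist1h2ag lay farthest apart. Of linker histones, the peaks of Hist1h1c (278 and 225, then 181 and 198), Hist1h1e (196 and 173, then 101 and 154) and Hist1h1b (147 and 123, then 73.7 and 113) were not among the losing peaks, although in each both SH1sKO values lay below both WT values. Hist3h2a, outside the Hist1 cluster, scored 188 and 210 in WT and 194 and 239 in SH1sKO. The near-identical coding sequences of these genes can share reads, and since only unique alignments were kept, the score of a single copy is less certain than the sum.

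**Figure D3:**
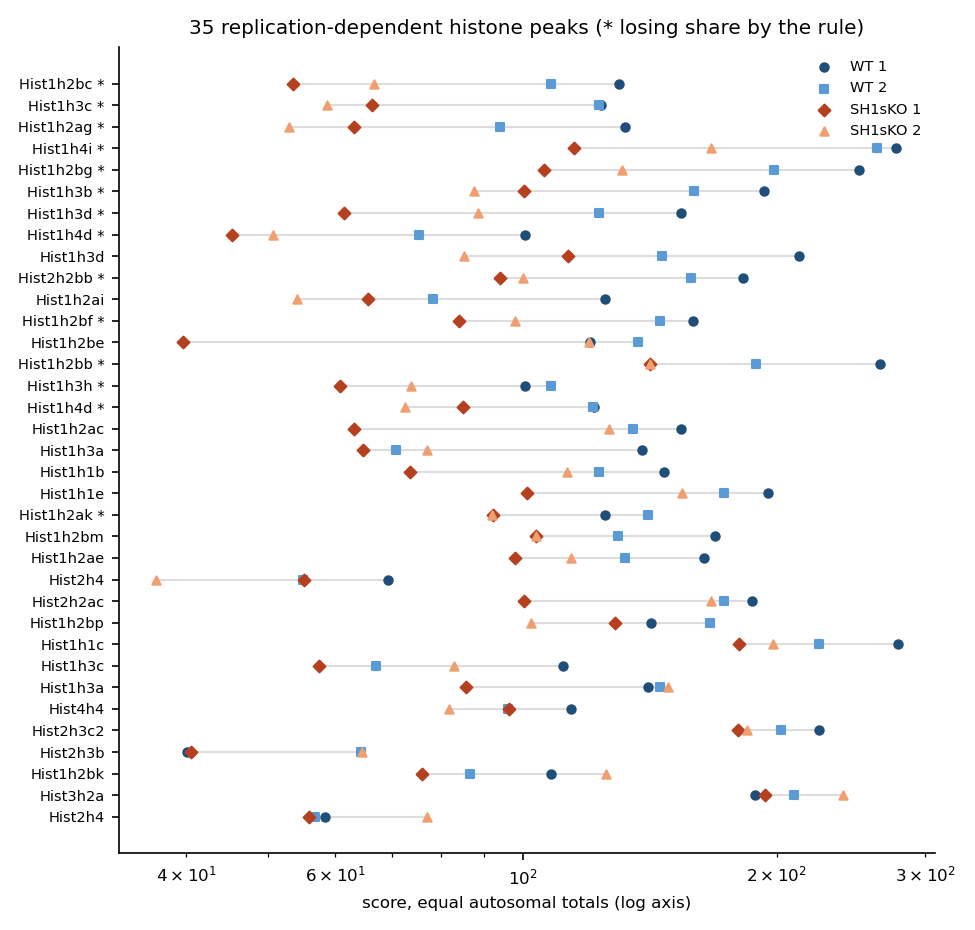
Scores at equal autosomal totals (log axis) of the 35 replication-dependent histone peaks, sorted by log2 difference, 1 point per library; an asterisk marks the 14 losing peaks. SH1sKO points lie to the left of WT points at 26 of the 35 peaks, and Hist3h2a, Hist1h2bk, Hist2h3b and a peak of Hist2h4 at the bottom have SH1sKO means at or above WT.

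Promoters of 4 of these histone genes are printed to show elements found in this family. The stretches are the 150 bases before the start site in RefSeq (GRCm38.p6), read in the direction of the gene, and lie inside the losing peak. Capitals mark CCAAT and TATAAA on either strand. They belong to Hist1h2ag (chr13:22042950-22043099, minus strand), Hist1h4d (chr13:23581418-23581567, plus strand), Hist1h2bb (chr13:23746584-23746733, plus strand) and Hist1h3h (chr13:21717478-21717627, plus strand).
Hist1h2ag: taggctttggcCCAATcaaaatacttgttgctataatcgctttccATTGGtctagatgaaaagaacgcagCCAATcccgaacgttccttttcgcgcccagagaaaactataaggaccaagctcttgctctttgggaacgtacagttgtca
Hist1h4d: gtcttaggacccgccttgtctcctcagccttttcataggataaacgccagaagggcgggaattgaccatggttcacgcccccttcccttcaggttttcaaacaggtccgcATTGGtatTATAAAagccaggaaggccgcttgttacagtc
Hist1h2bb: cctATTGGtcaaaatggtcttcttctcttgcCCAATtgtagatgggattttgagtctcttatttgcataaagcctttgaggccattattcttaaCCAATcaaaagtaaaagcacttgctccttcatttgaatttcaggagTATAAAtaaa
Hist1h3h: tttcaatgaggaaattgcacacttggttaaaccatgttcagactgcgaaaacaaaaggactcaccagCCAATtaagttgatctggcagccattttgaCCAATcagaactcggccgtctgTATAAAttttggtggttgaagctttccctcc

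RefSeq entries were matched for 12 of the 13 histone genes with a losing peak, in part through older symbols. Of these 12, 11 carried CCAAT and 7 carried TATAAA within the 150 bases, beside 24.3% and 7.56% of 31396 autosomal promoters. The histone genes whose peaks did not lose share had them as well, CCAAT in 13 and TATAAA in 5 of the 15 matched, so the elements describe the family.

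Other proliferation genes were fewer. Of 44 peaks at 22 cell cycle and replication genes, 3 lost share (6.82%, beside 3.03% of all peaks) and 1 gained, each of the 3 at a start site. Rrm2, the small subunit of ribonucleotide reductase, scored 306 and 221 in WT and 161 and 159 in SH1sKO. Pcna, the sliding clamp of DNA polymerases, scored 273 and 275 against 178 and 176. Cdc25a, a phosphatase that activates cyclin-dependent kinases, scored 134 and 110 against 80.2 and 78.3. At Pcna the replicates of each genotype were nearly identical, and at Rrm2 WT 1 was higher than WT 2.

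On the list of Pol II elongation and H4K20 methylation genes, 4 of 29 peaks lost share (13.8%) and 2 gained, beside 3.03% and 4.47% of all peaks past the minimum. The 4 losing peaks were all at elongation genes. They were the starts of Leo1, a subunit of the PAF1 complex (104 and 86.7 in WT, 55.9 and 46.1 in SH1sKO), and of Cdk9, the kinase of P-TEFb (74.1 and 61.5, then 30.8 and 46.1), an exon of Ccnt2, a cyclin partner of CDK9 (70.4 and 60.6, then 44.5 and 35.7), and the start of Supt5, which pauses and then follows the polymerase (69.2 and 74.6, then 40.5 and 49.5). All 4 were weak peaks, and at Cdk9 the SH1sKO replicates differed the most.

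Cytoskeletal and adhesion genes of the proliferating myoblast gave 12 losing peaks of 182 (6.59%, beside 3.03% of all peaks), and 2 gained. The strongest was in Zyx, encoding the focal adhesion protein zyxin, with 590 and 562 in WT and 388 and 404 in SH1sKO, and a second Zyx peak scored 180 and 125 against 94.7 and 89.8. An intronic peak of Cnn3, an actin-binding calponin, scored 153 and 158 against 85.8 and 76.0. Lmna, which encodes lamins A and C, had 2 losing peaks of 13, with 82.6 and 68.0 against 50.2 and 28.8 in the weaker one. Vim, encoding vimentin, had an intronic peak at 93.5 and 67.1 against 42.9 and 46.1, and Anxa2, encoding annexin A2, one at 70.4 and 73.6 against 40.5 and 34.5. Replicate spread was small in Cnn3 and Anxa2 and wider in Vim and Lmna.

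Among signalling genes the counts were low, and each share below is to be read beside the 3.03% losing and 4.47% gaining of all peaks past the minimum. Notch3, a Notch receptor, had 2 losing peaks of 7, the stronger in an intron with 317 and 364 in WT and 201 and 230 in SH1sKO, and these were the only losing peaks among the 45 of the Notch list (4.44%). Of 77 peaks at Wnt and Hippo genes, 3 lost share (3.90%) and 3 gained, with Tead3, a TEAD transcription factor, at 231 and 213 against 155 and 135. Of 77 peaks at growth factor receptor and Ras genes, 4 lost share (5.19%), among them Fgfr4, a fibroblast growth factor receptor of myoblasts, at 58.3 and 78.3 against 42.1 and 41.4. The 74 peaks of TGF-beta and BMP genes included no losing peak and 5 gaining peaks. The immediate early list had 3 losing peaks of 43 (6.98%), the Klf6 peaks and the start of Zfp36, which encodes an RNA-binding protein that destabilises mRNA, at 113 and 131 against 68.8 and 76.0.

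Of the p53 target list, 2 of 21 peaks lost share (9.52%, beside 3.03% of all peaks). They were in Bbc3, which encodes the pro-apoptotic protein PUMA (237 and 222 in WT, 158 and 150 in SH1sKO), and at the start of Sesn1, a sestrin (140 and 150, then 101 and 95.6). The median log2 difference over the 21 peaks was 0.00. Extracellular matrix genes had 4 losing peaks of 70 (5.71%, beside the same 3.03%), Col1a2, the start of Fbn1 (99.6 and 88.5, then 42.9 and 64.5), Thbs1 (75.3 and 59.7, then 35.6 and 42.6) and Tnc (89.9 and 81.1, then 51.0 and 55.3). Cytosolic ribosomal protein genes lost share at 2 of 103 peaks (1.94%), the starts of Rpl37a and Rpl10a, and none of 16 peaks at nuclear and snoRNA host RNAs lost or gained.

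Whether losing peaks cluster more than other peaks was not tested, since no such count was made for a set drawn from all peaks. Joined over gaps of up to 50000 bases, losing peaks formed 579 groups, of which 506 were single peaks, 55 pairs and 18 groups of 3 or more. The groups of 2 or more held 172 of the losing peaks. In all, 45 genes had 2 or more losing peaks and 9 had 3 or more. Beside Eya4 and E2f2, these were Ppargc1b, a coactivator of mitochondrial genes (4 of 8 peaks, summed 486 and 462 in WT and 301 and 273 in SH1sKO), Ugcg, the glucosylceramide synthase (3 of 17, 621 and 547, then 348 and 334), Sept9, a septin (3 of 19, 642 and 653, then 386 and 389), Arhgef2 (3 of 20, 878 and 805, then 555 and 560), Bin1, which shapes muscle T-tubules (3 of 17, 731 and 672, then 441 and 373), Sbno2 (3 of 11, 427 and 457, then 283 and 291) and the read-through gene above. In most of these genes the majority of peaks did not meet the rule, and the median log2 difference of the remaining peaks of a gene was -0.40 in Arhgef2, -0.23 in Ugcg, -0.13 in Sept9 and -0.24 in Ppargc1b.

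By position, 241 losing peaks (35.5%) had their centre within 1000 bases of an annotated transcription start site, beside 28.0% of all peaks past the minimum and 9.12% of the gaining peaks. Peaks overlapping a gene, with the centre away from starts and ends and outside exons, made up 40.9% of losing peaks and 40.2% of all. They are called intronic here, although the centre can lie outside the gene. Intergenic sequence held 16.5% and 22.8%, and gene ends 3.54% and 5.36%. Base composition differed in the same direction. The median GC content was 52.8% in losing peaks, 49.6% in all peaks past the minimum and 45.3% in gaining peaks, and the share of losing peaks rose from 1.4996% in the lowest GC quintile to 4.48% in the highest while that of gaining peaks fell from 8.62% to 0.806%.

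The libraries themselves carried a GC trend. Over all peaks past the minimum, the median log2 ratio to the mean of the 4 libraries went from -0.06 in the lowest to 0.09 in the highest GC quintile in WT 1 and from -0.08 to 0.05 in WT 2, and it went from 0.04 to -0.12 in SH1sKO 1 and from 0.05 to -0.05 in SH1sKO 2. When each library was also divided by its own median ratio in 20 GC bins, a setting added after the data were seen, 550 peaks met the rule, 443 of them losing peaks as described here. Their median GC content was 48.1% and their share at start sites 21.6%, below the 28.0% of all peaks past the minimum. The higher share of losing peaks at start sites was therefore not seen after that division. Within GC quintiles, starts made up 11.9% of losing and 6.54% of all peaks in the lowest, 10.3% and 8.73% in the second and 15.0% and 14.6% in the third, but 29.4% of losing and 31.5% of all peaks in the fourth quintile and 75% and 78.7% in the fifth. After the division 13 histone peaks met the rule, beside 14 before it, and how many are the same peaks was not counted. Whether the GC trend is technical was not tested, and since it separates the genotypes it cannot be told apart from them.

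**Figure D4:**
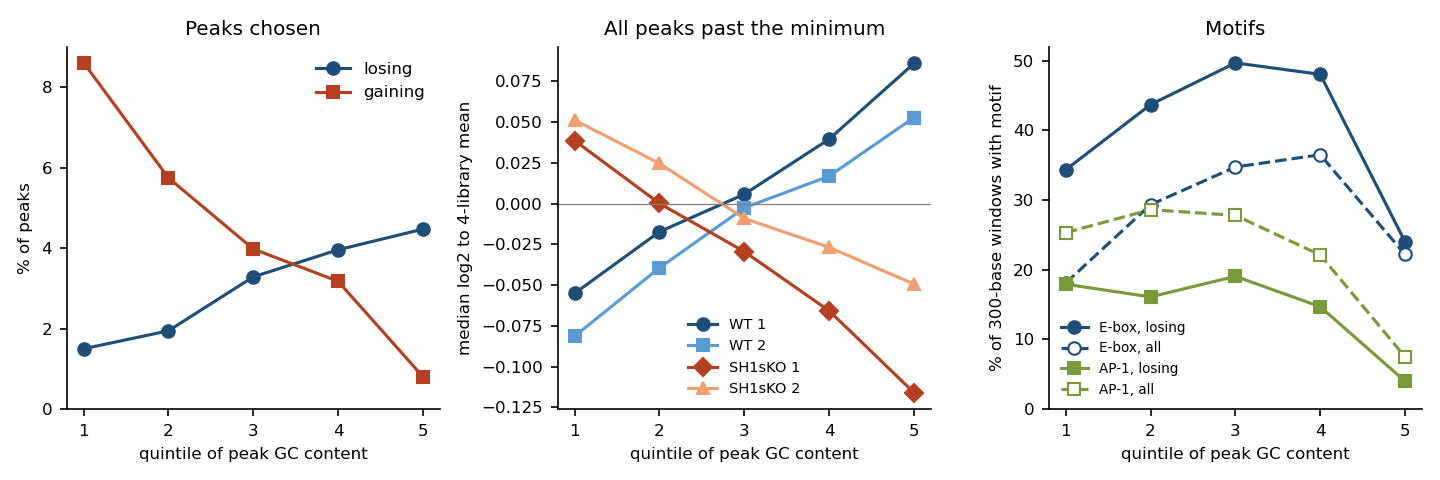
Peaks past the minimum in quintiles of GC content. Left, share of losing peaks (1.4996% to 4.48%) and gaining peaks (8.62% to 0.806%); middle, median log2 ratio of each library to the 4-library mean, rising in both WT libraries and falling in both SH1sKO libraries; right, share of 300-base windows holding CAGCTG (E-box) or TGANTCA (AP-1) among losing peaks (filled) and all peaks (open).

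The E-box CAGCTG shown in the windows above was present in the central 300 bases of 39.4% of losing peaks, 28.2% of all peaks past the minimum and 17.6% of gaining peaks. Away from start sites, where 437 losing peaks lay, the shares were 49.7%, 31.8% and 17.8%, and at start sites they were 20.7%, 18.9% and 16.5%. The general E-box CANNTG, which includes CAGCTG, was found in 80.7% of losing peaks and 79.9% of all. By GC quintile, CAGCTG was found in 34.3% of losing against 18.1% of all peaks in the lowest. In the middle quintiles the shares were 43.7% against 29.3%, 49.7% against 34.7% and 48.0% against 36.5%. In the highest quintile, which held 200 losing peaks, they were nearly equal, at 24.0% against 22.2%. Among the peaks that met the rule after the GC division, 45.2% of those away from starts held it.

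The motif TGANTCA, bound by AP-1 factors such as JUN and FOS, went the other way. It was found in 13.0% of losing peaks, 22.3% of all and 22.9% of gaining peaks, and away from starts in 16.5%, 27.6% and 23.8%. It was rarer among losing peaks than among all peaks in each of the GC quintiles. After the GC division it was held by 20.2% of the peaks away from starts. The GC-rich SP1 motif GGGCGG was found in 26.0% of losing peaks and 20.6% of all, but at start sites in 54.8% and 53.8%. GGAATG, the motif of TEAD factors, was found in 19.8% and 19.9%, and CCAAT in 38.2% and 35.7%. A match to a motif describes the sequence and does not show that a factor was bound.

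H4K20me1 was measured in separate libraries that the rule did not use. Of the losing peaks, 335 (49.4%) overlapped an H4K20me1 peak, beside 60.7% of all peaks past the minimum and 70.5% of gaining peaks. All 335 passed the filter on low H4K20me1 values. They shared 314 H4K20me1 peaks with a median length of 19200 bases, beside 27600 under all peaks past the minimum, so the value describes a domain around the Pol II peak. The other losing peaks lay outside the H4K20me1 peaks. The median H4K20me1 score of the overlapping domain was 368 and 445 in the WT libraries and 924 and 1018 in the SH1sKO libraries. For all peaks past the minimum the medians were 666 and 863, then 1354 and 1465. Scores are not divided by length. Per 1000 bases the median was 23.1 under losing peaks and 27.9 under all peaks in WT, and 51.7 and 52.6 in SH1sKO.

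On the deposited scale the mark was higher in SH1sKO almost everywhere. Of 40902 autosomal H4K20me1 peaks tested with limma on log2(score + 1), 90.1% were called higher (adjusted p under 0.1 and a log2 difference above 0.5) and 0.00244%, a single peak, lower. Under the losing peaks 278 of 335 were called higher (83.0%), beside 77.2% under all peaks past the minimum, and by limma 0 were called lower, with 0 of all peaks lower at an unadjusted p under 0.05 (the single peak called lower passed the adjusted limit only, as can happen where nearly all peaks pass). The median log2 difference was 1.17 under losing peaks, 0.91 under all and 0.77 under gaining peaks. Without SH1sKO 2 the number called higher was 148.

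When the H4K20me1 libraries were set to equal autosomal totals, which removes the common rise, 22.5% of 40885 peaks were called higher and 4.42% lower. Under the losing peaks 118 of 333 were then higher (35.4%) and 54 lower (16.2%), beside 22.2% and 20.7% under all peaks past the minimum and 9.96% and 28.3% under gaining peaks. The median log2 difference was 0.18 under losing peaks, -0.07 under all and -0.21 under gaining peaks. The median was above that of all peaks in each GC quintile, with -0.17 against -0.30 in the lowest and 0.15 against 0.06 in the highest.

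This difference was also followed by library. The median log2 score under losing peaks minus that under all peaks past the minimum was -0.85 and -0.95 in WT and -0.55 and -0.52 in SH1sKO. It was thus 0.37 higher in SH1sKO, with a pooled SD between replicates of 0.05 and no overlap between genotypes. An exact two-sided permutation test over the libraries gave p = 0.33, which is the smallest value that 2 against 2 libraries can give, so the test cannot pass a threshold of 0.05.

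**Figure D5:**
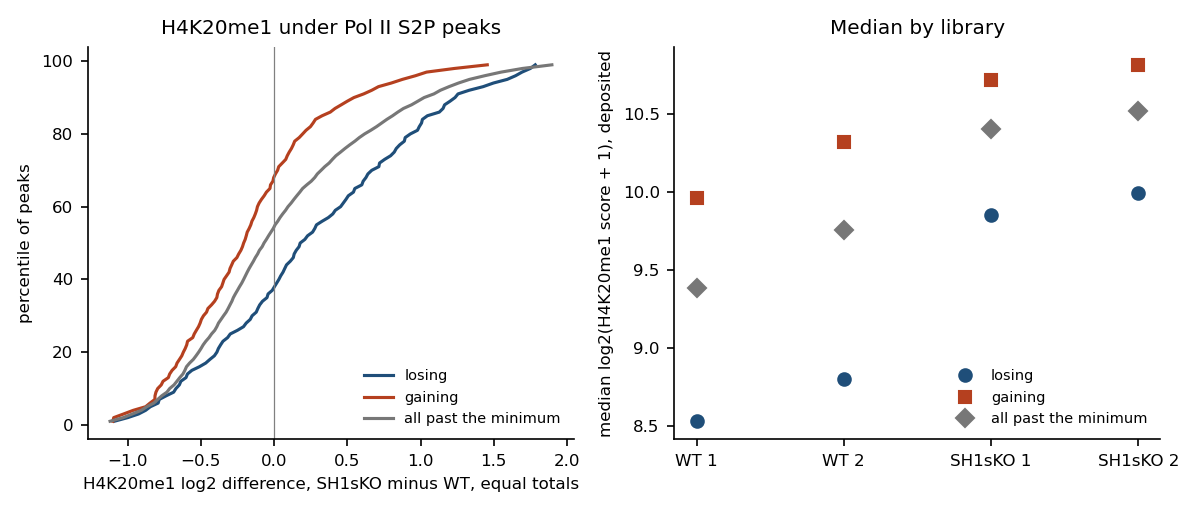
Left, percentiles of the log2 difference in H4K20me1 (SH1sKO minus WT, equal autosomal totals) under losing, gaining and all Pol II S2P peaks past the minimum; the medians are 0.18, -0.21 and -0.07. Right, median log2(score + 1) of H4K20me1 on the deposited scale by library; losing peaks lie lowest in every library and the gap to all peaks is -0.85 and -0.95 in WT and -0.55 and -0.52 in SH1sKO.

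Individual losing peaks covered both directions of the mark at equal totals. The SE and adjusted p-values below come from limma, which borrows variance from all peaks tested. They do not measure the spread between the 2 libraries of a genotype at a single peak. The highest increases by limma lay under a peak of 4632428C04Rik, a non-coding gene (log2 difference 2.07, SE 0.34, adjusted p = 3.38e-08), at the start of S100a6, a calcium-binding protein (1.81, SE 0.24, adjusted p = 4.20e-12), and near Vgll2, a TEAD cofactor of skeletal muscle (1.80, SE 0.31, adjusted p = 6.60e-08). At S100a6 the deposited H4K20me1 scores were 65 and 74 in WT and 423 and 555 in SH1sKO, while Pol II S2P scored 308 and 276 in WT and 207 and 212 in SH1sKO. The lowest values lay under Tra2b, a splicing regulator (log2 difference -1.21, SE 0.08, adjusted p = 3.47e-44 by limma), Hnrnpf, an hnRNP (-1.18, SE 0.10, adjusted p = 6.23e-33) and Map7d1 (-1.15, SE 0.09, adjusted p = 9.32e-34). At Tra2b the deposited scores were 1312 and 1495 in WT and 1168 and 1218 in SH1sKO, so that the mark was similar before and lower after scaling.

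On the deposited scale the same 3 peaks had the highest values, 3.04 at 4632428C04Rik, 2.79 at S100a6 and 2.77 near Vgll2. The lowest that were still called by limma were Nop56, a snoRNP protein (0.51, SE 0.30, adjusted p = 0.0920), Cttn, the actin-binding protein cortactin (0.54, SE 0.29, adjusted p = 0.0690), and Coq5 (0.54, SE 0.28, adjusted p = 0.0612). At Nop56 the mark scored 248 and 286 in WT and 400 and 362 in SH1sKO, and Pol II S2P scored 92.3 and 69.9 against 48.6 and 41.4.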

How the data were processed

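CUT&RUN libraries of MuSCs were used, 2 per genotype for Pol II S2P and H4K20me1, and the IgG controls were left out. The authors trimmed reads with Trimmomatic 0.39, aligned them to mm10 (GRCm38) with STAR 2.7.3a, kept unique alignments, removed duplicates with Picard 2.21.7 and normalised coverage by a spike-in from S2 cells. SICER 0.0.41 and MACS2 2.1.1 are named in the submitters' processing notes without a role. Each deposited value is a score per union peak and library, namely normalised coverage in whole numbers without division by length, and is not a read count. The scores carry no depth in reads, and the sequencing depth that the study states per library was not used here. The authors also deposited the fraction of each peak within its listed gene. Whether the scores follow the spike-in could not be checked.

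Losing peaks were defined on scores at equal autosomal totals. Sex chromosomes were left out. Genes were the listed ones, named from GENCODE M21, with which 547 of 547 identifiers matched, and positions came from the same annotation (start within 1000 bases). Motifs were searched on both strands with Python 3.11.15 and pysam 0.24.0. H4K20me1 was tested with limma 3.58.1 in R 4.3.3 on log2(score + 1) of autosomal peaks with a mean above 50, and p-values were adjusted by Benjamini-Hochberg over all peaks tested. The limma step was tested on simulated data. The study describes the 2 libraries per genotype as biological replicates, and the labels do not tie them to animals or cultures. The replicate numbers were not treated as pairs, since the differences between replicates 1 and 2 of the genotypes had a correlation of 0.03. Named peaks were the 12 largest ratios, the 8 highest WT values, up to 4 per gene list, genes with 3 or more losing peaks, the peaks at the threshold and the H4K20me1 extremes. Members and lists were chosen with earlier results of these data known.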

Additional observations from a re-analysis of the deposited data

How the results depend on the processing

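The number of losing peaks depended on the scale and the limits. It was 678 at equal autosomal totals and over the totals of all chromosomes, 575 with median-ratio size factors, 694 with quantile normalisation and 550 with the GC division, but 135 on the scores as deposited, of which 88 were among the 678. Thresholds of 1.2 and 1.5 gave 1450 and 129 peaks, and minimum means of 20 and 100 gave 1567 and 307. A rule on 3 libraries asks less and gave 1393 peaks without WT 1, 2506 without WT 2, 2084 without SH1sKO 1 and 2480 without SH1sKO 2. Histone peaks numbered 5 on the deposited scores and 6 at a threshold of 1.5, and 14 to 22 with a library left out, the 22 without WT 2.

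The median log2 ratio of the losing peaks was -0.67, and -0.51 on the deposited scores, -0.47 from the lower WT and higher SH1sKO values, and -0.68 to -0.62 with a library left out. The share at start sites was 30.2% within 500 bases, 41.9% within 2000 bases and 31.3% for protein-coding starts, beside 23.5%, 34.5% and 24.5% of all peaks past the minimum, but 21.6% after the GC division, beside 28.0%.

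Of the H4K20me1 calls under losing peaks, 118 were higher and 54 lower at equal totals, and 87 and 39 with quantile normalisation. With a library left out they were 148 to 294 higher and none lower on the deposited scale, and 86 to 129 higher and 50 to 58 lower at equal totals. The replicate block gave 277 higher and 0 lower on the deposited scale, 119 and 54 at equal totals, and the same relative change of 0.37 (exact permutation p = 0.5, the smallest that 2 pairs allow), and it changed no other call. The relative change ranged from 0.32 to 0.42 over the alternatives. The cause of these differences was not tested. With 2 libraries per genotype and scores that are not counts, the precision of a single peak is given by its printed values.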

Other observations

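Some regions with several losing peaks were not described above. On chromosome 17 the Tapbp, Zbtb22, Daxx and Wdr46 region of the major histocompatibility complex held 3 losing peaks of 4 past the minimum, with summed scores of 803 and 706 in WT and 504 and 500 in SH1sKO. A second stretch of the same complex, with Vars, which encodes a valyl-tRNA synthetase, Vwa7 and Msh5, held 4 of 9, with 511 and 493 against 350 and 314. On chromosome 1 a region between Il17a and Pkhd1 held 3 of 9, with 384 and 385 against 269 and 239. None of these regions held a gaining peak. In each of them both SH1sKO sums lay below both WT sums, which the choice of losing peaks fixes. Each region also runs from its first to its last losing peak, which raises the proportion of losing peaks in it.

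The rule left out the sex chromosomes. Of 239 peaks on them past the minimum, 13 met the same ratio (5.44%) and 10 its mirror image.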
